A study of Mus musculus with 18 samples.

Results

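To determine which transcripts of the carcinogen-treated forestomach differ when the chemokine receptor CCR2 is missing, 6 CCR2-/- NMBA libraries were compared with 6 WT NMBA libraries. These 12 libraries, chosen by their labels, are part of 18 that profile forestomachs of male C57BL/6 mice by RNA sequencing. Both groups of the comparison had been gavaged with N-nitrosomethylbenzylamine (NMBA), a nitrosamine carcinogen of the upper digestive tract, with 2 doses of 0.25 mg/kg body weight in each of 5 weeks, and forestomachs were collected when week 25 ended. The labels give the cell type as esophageal cancer and the paper speaks of tumors, but no value of the lesion content of a sample is at hand. The other 6 libraries, 3 CCR2-/- CT and 3 WT CT, came from mice given 1% carboxyl methyl cellulose, the vehicle, and serve here as the same genotype contrast without the carcinogen. The CCR2-/- mice carried the Ccr2tm1Ifc allele, which removes the receptor in all cells from birth, so a difference can arise in any cell type or stage of life. Wild-type C57BL/6 mice were bought from another supplier than the knockout strain, and whether the sequenced WT mice were littermates is not stated in the sources used here. The library codes split each NMBA group, with O (replicates 1 to 3) and I (replicates 4 to 6) for CCR2-/- mice, and M (replicates 1 to 3) and G (replicates 4 to 6) for WT mice. What the letters stand for is not given, and each letter belongs to 1 group only.

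CCR2 is the receptor that lets inflammatory monocytes leave the bone marrow and enter inflamed tissue along gradients of CCL2 and the related ligands CCL7, CCL8 and CCL12. In tissue these monocytes can become macrophages and dendritic cells that carry MHC class II molecules and lysozyme M. NMBA lesions arise from the squamous epithelium that lines both the esophagus and the forestomach of rodents.

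The values are FPKM (fragments scaled to transcript length and to the mapped total of the library) as the authors deposited them. Tests used limma on log2(FPKM + 1), with p values adjusted by Benjamini and Hochberg over the 14765 genes that have a reference gene and reach 0.5 FPKM in 3 or more of the 18 libraries, and a gene was called at an adjusted p under 0.05. A log2 difference is CCR2-/- minus WT, and adding 1 draws it toward 0 for genes near or below 1 FPKM. Squamous genes such as keratins and small proline-rich proteins were abundant in all libraries. Their summed level over 24 squamous genes was 27800 to 42100 FPKM in CCR2-/- NMBA libraries and 30700 to 39000 FPKM in WT NMBA libraries. All entries of a library summed to 365825 to 491692 FPKM. Glandular stomach was present in every library as well, since Pgc, which encodes the zymogen pepsinogen C of gastric glands, made up 0.535 to 9.51% of the FPKM of CCR2-/- NMBA libraries and 0.497 to 4.09% of that of WT NMBA libraries. The summed level over 19 glandular stomach genes was 6300 to 68600 FPKM in CCR2-/- NMBA and 8900 to 48800 FPKM in WT NMBA libraries. In both groups its highest value was above the highest squamous sum. In bulk tissue, fewer cells of a type and less RNA per cell cannot be told apart.

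The targeted gene separated the genotypes. Ccr2 (chromosome 9, 124101950 to 124113557, plus strand, build GRCm38) measured 0.0613, 0.0652, 0.0301, 0.0241, 0 and 0.0798 FPKM in CCR2-/- NMBA replicates 1 to 6, against 2.14, 3.43, 2.63, 2.48, 1.3 and 1.69 FPKM in WT NMBA replicates 1 to 6. No CCR2-/- library reached the level of any WT library. The mean was 0.0434 ± 0.0302 FPKM in CCR2-/- NMBA libraries and 2.28 ± 0.75 FPKM in WT NMBA libraries (SD, n = 6 each), a 52.5-fold lower level in CCR2-/-. The log2 difference was -1.62 (standard error 0.12, adjusted p = 1.55e-06, limma), and the exact two-sided permutation test over the 924 divisions of 12 libraries gave its smallest possible p, 0.00216. The difference was -1.81 for O against M and -1.43 for I against G, and it was -1.62 in controls.

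Apart from Ccr2, 6 genes passed the test. In all, 7 genes were called of 14765 tested (0.0474%), 3 higher (0.0203%) and 4 lower (0.0271%) in CCR2-/- NMBA libraries, while 930 genes (6.3%) had an unadjusted p under 0.05. Slc6a20a, Lyz1 and Tifab fell together with Ccr2, and Tmem254b, Xcr1 and Zfp932 rose. Xcr1 met the filter of 0.5 FPKM only through CCR2-/- libraries and Ccr2 only through WT libraries. For all 7 genes the 6 CCR2-/- and the 6 WT libraries did not overlap, as for 48 genes overall (0.325% of those tested). Without overlap of these groups, the direction of all 7 was bound to be the same in both code sets, which are parts of them. All 7 also had the same sign in controls, where the 3 CCR2-/- and the 3 WT libraries did not overlap either. Groups of 3 separate more readily than groups of 6, and the share of all tested genes without overlap in controls was not counted. Only Ccr2, Slc6a20a and Tmem254b passed when the 12 NMBA libraries were fitted without the controls.

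**Figure D1:**
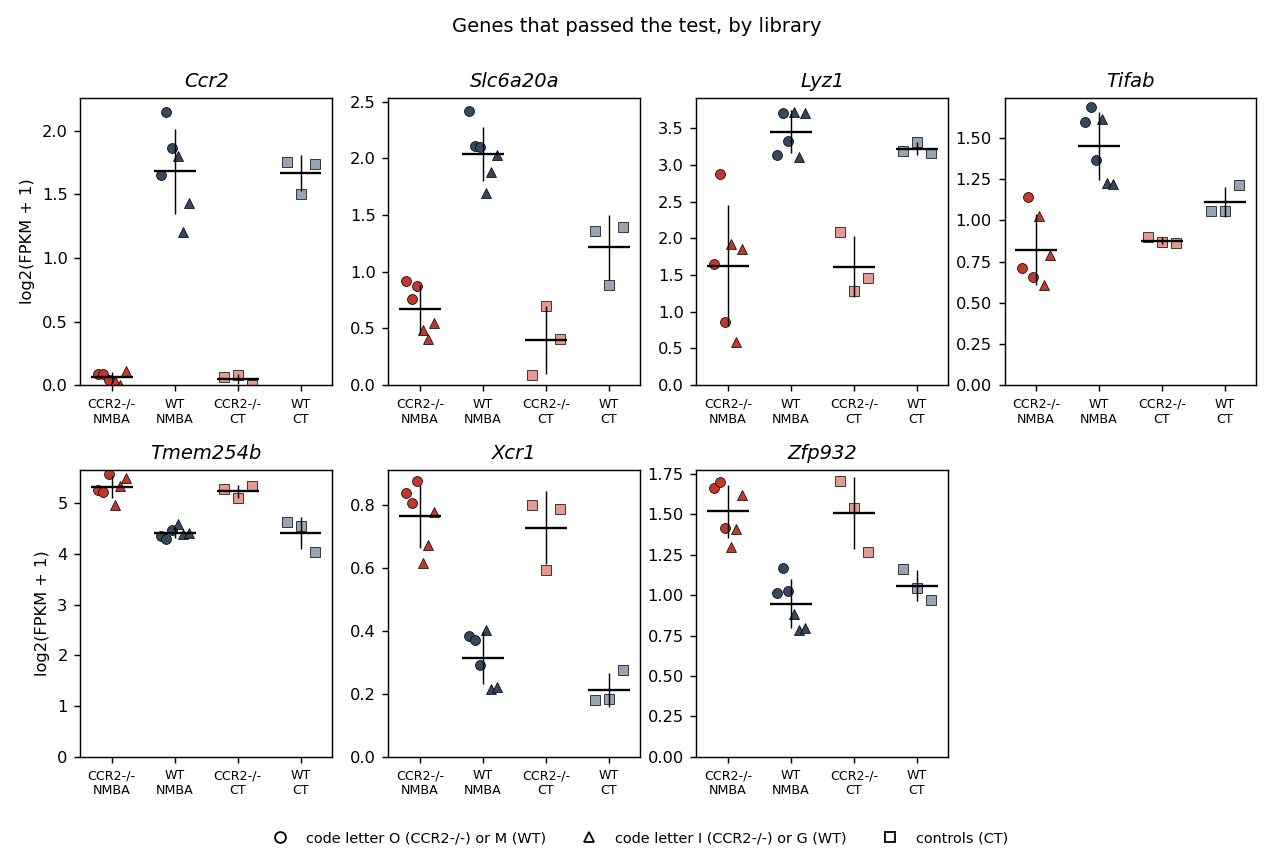
Level of the 7 called genes as log2(FPKM + 1) (y axis, from 0) in each library of the CCR2-/- NMBA, WT NMBA, CCR2-/- CT and WT CT groups (x axis), with circles for code letters O and M, triangles for I and G, squares for controls, a line at the group mean and a bar of 1 SD. In each panel the CCR2-/- and WT points are apart both under NMBA and in controls.

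Of the called genes, Slc6a20a and Xcr1 lie close to Ccr2 on chromosome 9, one lower and the other higher in CCR2-/- mice. Slc6a20a (123636122 to 123678885, minus strand), which encodes a sodium-coupled transporter of proline and related imino acids, measured 0.894, 0.694, 0.838, 0.403, 0.325 and 0.466 FPKM in CCR2-/- NMBA replicates 1 to 6, against 4.33, 3.31, 3.29, 2.24, 2.69 and 3.09 FPKM in WT NMBA replicates 1 to 6. Every WT library was above 2 FPKM and every CCR2-/- library below 1 FPKM. Its log2 difference was -1.37 (standard error 0.14, adjusted p = 0.000115, limma), with -1.35 for O against M (adjusted p = 0.00375) and -1.39 for I against G (adjusted p = 0.00271). In controls it averaged 0.337 FPKM in CCR2-/- and 1.35 FPKM in WT, a log2 difference of -0.82 that did not pass (adjusted p = 0.523), and the 2 contrasts were not shown to differ (adjusted p = 0.893 for the interaction, limma).

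Xcr1 (123852315 to 123862029, minus strand), the receptor for the chemokine XCL1 and a marker of type 1 conventional dendritic cells, measured 0.788, 0.751, 0.837, 0.534, 0.597 and 0.717 FPKM in CCR2-/- NMBA libraries, against 0.305, 0.294, 0.225, 0.323, 0.161 and 0.167 FPKM in WT NMBA libraries. The level was higher in each CCR2-/- library than in each WT library, by 2.86-fold on average. Xcr1 met the filter of 0.5 FPKM only through CCR2-/- libraries, as WT libraries reached 0.323 FPKM at most. Its call stayed with no filter on low values. The log2 difference was 0.45 (standard error 0.07, adjusted p = 0.00917, limma), with 0.49 and 0.41 in the 2 code sets and 0.52 in controls. Of the other 10 tested markers of type 1 dendritic cells none was called and the median of all 11 was -0.05. Batf3, a transcription factor these cells require, averaged 0.285 FPKM in CCR2-/- NMBA and 0.569 FPKM in WT NMBA libraries (log2 difference -0.28, adjusted p = 0.662, limma).

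Within 1000000 bases of Ccr2, 22 entries were tested. Beside Ccr2, Slc6a20a was called lower and Xcr1 higher. Of the 21 entries other than Ccr2, 4 were lower and 2 higher at an unadjusted p under 0.05 (limma), against 3.9% and 2.4% of all genes. Their differences went both ways, and the median, 0.04, lay near the 0.02 of all genes. The chemokine receptors Ccr1 and Ccr3 had log2 differences of 0.14 and 0.12, and Cxcr6, a receptor of tissue T cells, had -0.18, none of which passed. Lars2, which encodes the mitochondrial leucyl-tRNA synthetase, had a log2 difference of 1.92 with a standard error of 1.08, since its WT NMBA libraries ranged over 3.42 to 505 FPKM. Of 3 entries of Ppp2r3d, a phosphatase subunit gene, the entry MSTRG.53760 had a log2 difference of -0.70 under NMBA and -1.70 in controls, and neither passed (adjusted p = 0.73 and 0.474, limma). Under NMBA it was -0.28 for O against M and -1.11 for I against G. The entries MSTRG.53754 and MSTRG.53756 had -0.27 and 0.13 under NMBA and -0.42 and -0.84 in controls, and none of these passed. MSTRG.53754 and MSTRG.53760 are both among the 4 lower entries, so these are not all separate genes. The Ccr2tm1Ifc allele was made in embryonic stem cells and crossed into C57BL/6, so whether sequence of another strain flanks Ccr2 in these mice was not tested.

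**Figure D2:**
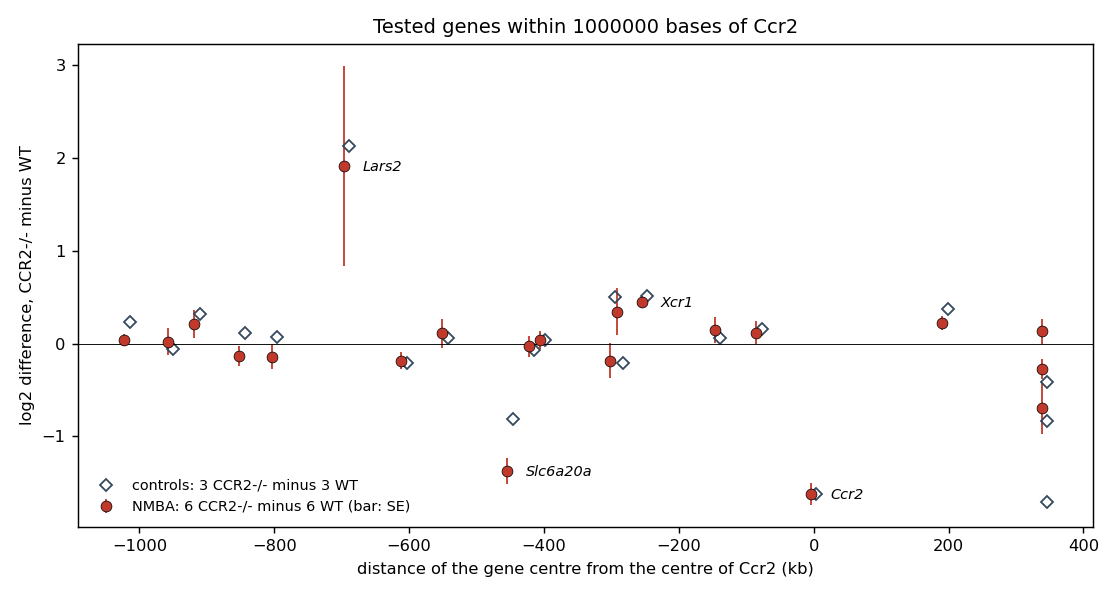
Log2 difference CCR2-/- minus WT (y axis) of tested entries within 1000000 bases of Ccr2 (all but 1) against the distance of the gene's centre from that of Ccr2 in kb (x axis), with filled circles and bars of 1 standard error for NMBA and open diamonds for controls. Slc6a20a lies below and Xcr1 above 0 in both contrasts, while most neighbours lie near 0 and Lars2 has a wide bar.

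Lysozyme genes, whose product cleaves bacterial cell walls and which phagocytes and gland cells express, lie on chromosome 10, and of these Lyz1 was called. Lyz1 (117287796 to 117292868) measured 2.15, 6.34, 0.815, 2.8, 0.502 and 2.61 FPKM in CCR2-/- NMBA replicates 1 to 6, against 7.76, 12.1, 9.06, 12.2, 7.64 and 12.1 FPKM in WT NMBA replicates 1 to 6. CCR2-/- replicate 2 came nearest to the WT libraries and replicates 3 and 5 were lowest. Lyz1 fell by 1.83 on the log2 scale (standard error 0.29, adjusted p = 0.0201, limma), with -1.59 for O against M and -2.06 for I against G, and its difference was -1.61 in controls. Leaving out single libraries ended the call for 6 of the 18 (highest adjusted p = 0.0809, without WT NMBA replicate 4). Lyz2, the lysozyme M of monocytes and macrophages, measured 111, 123, 48.8, 103, 82.9 and 111 FPKM in CCR2-/- NMBA libraries and 198, 192, 169, 217, 122 and 137 FPKM in WT NMBA libraries. Only CCR2-/- replicate 2, at 123 FPKM, reached above the lowest WT library, at 122 FPKM. Its log2 difference was -0.86 (standard error 0.20) and did not pass (adjusted p = 0.225, limma).

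Lyz1 and Lyz2 are neighbouring copies, and reads that match both could have been split between them, so their 2 values are not independent. The promoters (250 bases before to 50 after the start, RefSeq, build GRCm38.p6, minus strand) are shown to let the copies be compared. They were 82.5% identical in a global alignment, and the capitals mark their longest identical run, 86 bases.
Lyz1, chr10:117292819-117293118: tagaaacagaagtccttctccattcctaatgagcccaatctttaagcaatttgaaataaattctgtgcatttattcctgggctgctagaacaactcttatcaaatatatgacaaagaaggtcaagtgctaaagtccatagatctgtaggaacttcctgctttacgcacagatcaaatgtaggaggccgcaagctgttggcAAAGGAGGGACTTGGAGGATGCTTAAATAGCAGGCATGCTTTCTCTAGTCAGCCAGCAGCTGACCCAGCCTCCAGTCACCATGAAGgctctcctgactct
Lyz2, chr10:117282223-117282522: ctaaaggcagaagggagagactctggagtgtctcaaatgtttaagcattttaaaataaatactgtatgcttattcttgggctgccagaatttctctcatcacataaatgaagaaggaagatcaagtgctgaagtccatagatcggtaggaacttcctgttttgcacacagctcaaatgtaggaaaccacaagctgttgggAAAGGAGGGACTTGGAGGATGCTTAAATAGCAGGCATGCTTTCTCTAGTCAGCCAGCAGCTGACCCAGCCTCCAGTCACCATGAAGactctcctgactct

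The remaining called genes lie on 3 other chromosomes. Tifab (chromosome 13, 56173703 to 56178885), which encodes an inhibitor of TRAF6 signalling in myeloid cells, measured 0.639, 1.21, 0.575, 1.04, 0.523 and 0.727 FPKM in CCR2-/- NMBA libraries, against 2.03, 2.22, 1.58, 2.06, 1.34 and 1.33 FPKM in WT NMBA libraries. The highest CCR2-/- library, replicate 2, stayed below the lowest WT library, replicate 6. Tifab fell by 0.63 on the log2 scale (standard error 0.11, adjusted p = 0.039, limma), with -0.72 and -0.54 in the 2 code sets, and its difference was -0.23 in controls. When single libraries were left out, its call was lost for 14 of the 18 (highest adjusted p = 0.145, without WT NMBA replicate 1), and it was also lost when the differences of the code sets were averaged in the fit of 6 code letters (adjusted p = 0.0602, limma).

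Tmem254b (chromosome 14, 26203369 to 26207041), a transmembrane protein gene with copies in the same region, measured 37.3, 36.5, 46.8, 30.4, 39.5 and 44 FPKM in CCR2-/- NMBA libraries, against 19.3, 18.7, 21.1, 23.1, 20.1 and 20.3 FPKM in WT NMBA libraries. WT libraries stood close together and all CCR2-/- libraries lay well above them. It rose by 0.89 on the log2 scale (standard error 0.11, adjusted p = 0.00159, limma), with 0.99 and 0.80 in the 2 code sets and 0.82 in controls. The copy Tmem254c, chosen after its values were seen, had 13.3 to 24.1 FPKM in CCR2-/- NMBA and 10.8 to 13.8 FPKM in WT NMBA libraries (log2 difference 0.65, adjusted p = 0.239, limma), and how reads were divided between the copies is unknown.

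Zfp932 (chromosome 5, 109996521 to 110010411), a zinc finger gene, measured 2.17, 2.25, 1.67, 1.46, 1.66 and 2.07 FPKM in CCR2-/- NMBA libraries, against 1.02, 1.25, 1.04, 0.848, 0.726 and 0.734 FPKM in WT NMBA libraries. CCR2-/- replicate 4 was lowest of its group and still above WT replicate 2, the highest of the WT libraries. It rose by 0.57 on the log2 scale (standard error 0.10, adjusted p = 0.039, limma), with 0.53 and 0.62 in the 2 code sets and 0.45 in controls. The call was lost for 13 of the 18 libraries left out singly (highest adjusted p = 0.154, without CCR2-/- NMBA replicate 2).

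Several genes that came next in p value but did not pass were near-identical copies or pseudogenes, for which a difference between strains or in the division of reads cannot be told apart from one in expression. Rps3a2, a copy of a ribosomal protein gene on chromosome 14, measured 122, 91.2, 247, 173, 5.67 and 220 FPKM in CCR2-/- NMBA libraries, against 6.89, 4.45, 5.53, 8.36, 6.08 and 9.57 FPKM in WT NMBA libraries. Among CCR2-/- NMBA libraries, replicate 5 had a WT-like level, and in controls Rps3a2 measured 369, 7.63 and 115 FPKM in CCR2-/- CT replicates 1 to 3, against 6.2 to 7.56 FPKM in WT CT libraries. The tropomyosin copy Tpm3-rs7, on the same chromosome, measured 45, 50.9, 86, 83.8, 11.3 and 83.3 FPKM in CCR2-/- NMBA libraries and 7.05 to 14.8 FPKM in WT NMBA libraries. Here too replicate 5 was at the WT level, and CCR2-/- CT replicate 2, at 13.3 FPKM, was near the WT CT libraries (5.3 to 12.7 FPKM), with 71.5 and 44.7 FPKM in the other CCR2-/- CT libraries. Their log2 differences were 3.63 and 2.05 (adjusted p = 0.225 and 0.216, limma), and both passed without that library (adjusted p = 0.00763 for Rps3a2 and 0.00578 for Tpm3-rs7). Hsp25-ps1, a pseudogene of a heat shock protein, had 3.02 to 10.1 FPKM in CCR2-/- NMBA and 12.2 to 19.4 FPKM in WT NMBA libraries (log2 difference -0.92, adjusted p = 0.225), and Rpsa-ps2 had -0.56 (adjusted p = 0.225, limma).

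Among ordinary genes next in p value, Mettl15, a methyltransferase of the mitochondrial ribosome, had 1.38 to 1.78 FPKM in CCR2-/- NMBA and 0.979 to 1.27 FPKM in WT NMBA libraries (log2 difference 0.36, adjusted p = 0.111, limma). The zinc finger gene Zbtb14 had a log2 difference of 0.48 and Adss, adenylosuccinate synthase of purine synthesis, of 0.42 (adjusted p = 0.213 and 0.225). The groups did not overlap for any of these 3 genes. Isx, an intestinal homeobox gene, had 0.53 (adjusted p = 0.225) and BC021767 had 0.86 (adjusted p = 0.216, limma). Isx passed without CCR2-/- NMBA replicate 4, the library with the most Pgc (log2 difference 0.66, adjusted p = 0.00128).

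The genes of MHC class II presentation had the lowest median of the lists of more than 3 tested genes, although none was called. These molecules display peptides to CD4 T cells and are made by dendritic cells, macrophages and B cells. Of 13 tested genes, 7 had an unadjusted p under 0.05 and a lower level in CCR2-/- NMBA libraries, against 3.9% of all genes, and 0 had one and a higher level. The median log2 difference was -0.49, with -0.51 for O against M and -0.30 for I against G, and 8 of the 13 were negative in both code sets, against 26.7% of all genes. In controls the list's median was 0.04. Over all genes the median was 0.02 under NMBA and -0.00107 in controls. The summed level over 14 genes was 341 to 549 FPKM in CCR2-/- NMBA and 490 to 930 FPKM in WT NMBA libraries, against 404 to 490 FPKM in CCR2-/- CT and 342 to 538 FPKM in WT CT libraries.

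H2-Eb1, which encodes a class II beta chain, measured 73.6, 107, 78.2, 103, 54.2 and 84.9 FPKM in CCR2-/- NMBA libraries, against 148, 184, 144, 183, 109 and 120 FPKM in WT NMBA libraries. The groups did not overlap, and WT replicates 5 and 6 were the nearest to the CCR2-/- libraries. The log2 difference was -0.83 (standard error 0.17, adjusted p = 0.208, limma), with -0.89 and -0.77 in the 2 code sets and -0.14 in controls. H2-Aa, the alpha chain of I-A, measured 55.3, 60.7, 43.7, 58.1, 38.3 and 53.5 FPKM in CCR2-/- NMBA libraries, against 87.5, 110, 84.9, 96.6, 59.2 and 68 FPKM in WT NMBA libraries. Only WT replicate 5 lay within the CCR2-/- range. Its log2 difference was -0.69 (standard error 0.15, adjusted p = 0.225) under NMBA and 0.20 in controls (unadjusted p = 0.00373 for the interaction in limma, adjusted p = 0.893). H2-Ab1, the I-A beta chain, had -0.65 (adjusted p = 0.326), and H2-DMb1, part of the complex that loads peptides, had -0.55 (adjusted p = 0.225, limma). Cd74, the invariant chain, and H2-DMa, both chosen after their values were seen, had -0.62 and -0.49 (adjusted p = 0.409 and 0.591).

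Since genes of this pathway are known to share upstream boxes bound by the RFX complex (X box) and by NF-Y (Y box), the promoters of the 3 lowest-p members in the RefSeq table are shown (250 bases before to 50 after the start, build GRCm38.p6, H2-Aa on the minus strand and the others on the plus strand). Capitals mark the X box letters CTNGNAACT and the Y box letters GATTGG, which were chosen after these sequences were read. They lie 25 bases apart in H2-Eb1 and 26 in H2-Aa and H2-DMb1. H2-Ab1 and Cd74 have no entry.
H2-Eb1, chr17:34305617-34305916: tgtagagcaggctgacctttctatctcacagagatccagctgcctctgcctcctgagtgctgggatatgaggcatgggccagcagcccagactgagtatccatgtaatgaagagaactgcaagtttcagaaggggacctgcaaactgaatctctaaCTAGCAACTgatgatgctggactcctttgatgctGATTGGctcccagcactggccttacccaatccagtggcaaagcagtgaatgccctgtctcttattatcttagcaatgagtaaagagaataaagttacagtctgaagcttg
H2-Aa, chr17:34287774-34288073: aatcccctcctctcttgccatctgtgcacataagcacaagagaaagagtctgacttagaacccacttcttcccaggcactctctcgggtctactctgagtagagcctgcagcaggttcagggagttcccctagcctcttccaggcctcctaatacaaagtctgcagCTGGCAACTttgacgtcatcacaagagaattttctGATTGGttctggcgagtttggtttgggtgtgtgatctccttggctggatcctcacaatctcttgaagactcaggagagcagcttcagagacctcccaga
H2-DMb1, chr17:34152941-34153240: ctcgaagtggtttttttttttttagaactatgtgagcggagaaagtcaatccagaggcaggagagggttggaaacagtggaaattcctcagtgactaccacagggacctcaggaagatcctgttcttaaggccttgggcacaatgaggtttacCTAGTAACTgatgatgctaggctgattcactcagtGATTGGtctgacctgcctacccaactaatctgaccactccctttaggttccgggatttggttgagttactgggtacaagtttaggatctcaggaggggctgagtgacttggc

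In this order and within 60 bases, on either strand, both sets of letters occurred in the promoters of 3 of 12 genes of the list and of 17 of 27025 genes (0.0629%), while the X box letters alone occurred in 4.67% and the Y box letters alone in 18.2% of genes. The 3 genes of the list are H2-Eb1, H2-Aa and H2-DMb1, whose sequences were read before the letters were chosen. Their match was fixed by that choice, so these counts carry no test, and a match describes letters only.

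**Figure D3:**
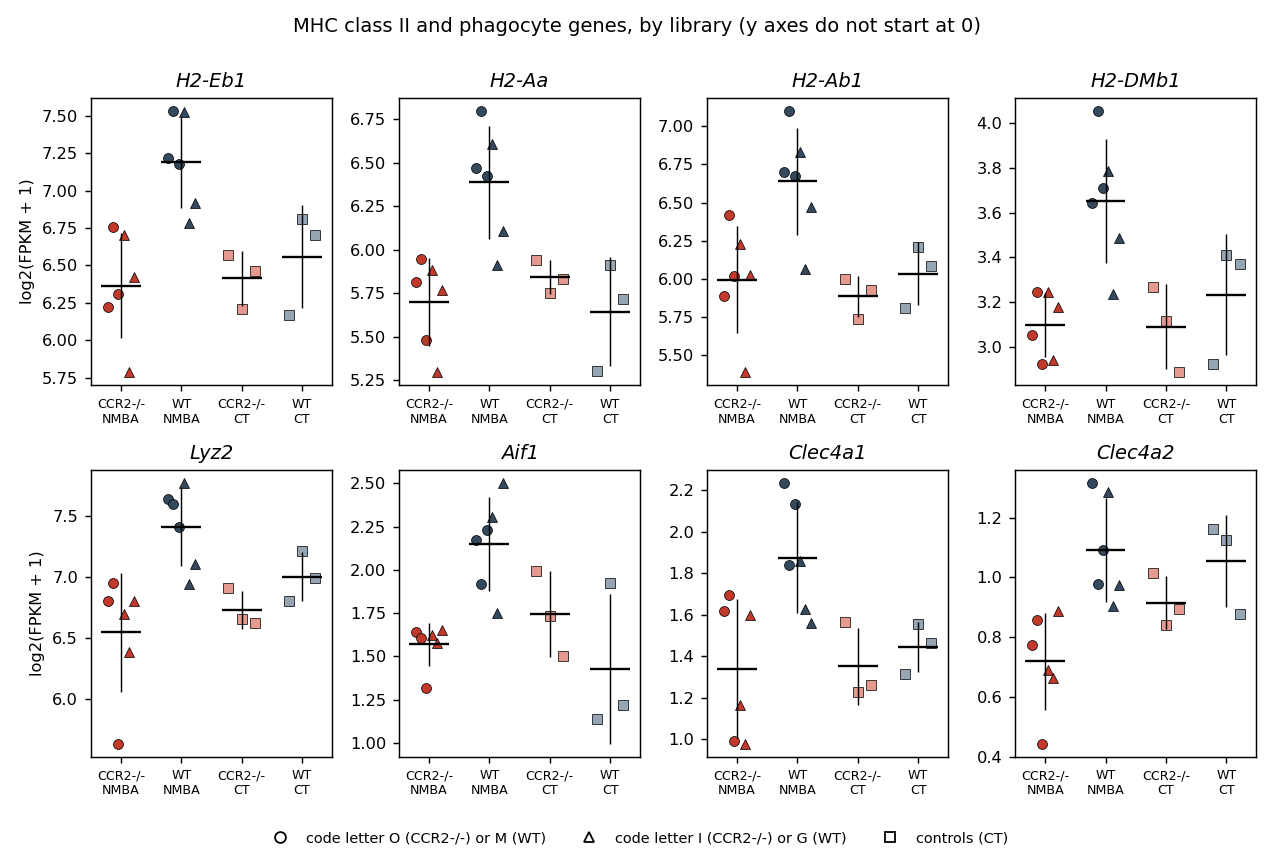
Level of 4 MHC class II and 4 phagocyte genes as log2(FPKM + 1) (y axis, not from 0) in each library of the 4 groups (x axis), with circles for code letters O and M, triangles for I and G, squares for controls, a line at the group mean and a bar of 1 SD. CCR2-/- NMBA means lie below WT NMBA means in every panel, since only genes with a lower mean are shown. Timd4, a macrophage gene with a higher level in CCR2-/- NMBA libraries, is left out. Control means lie closer together, which a choice of genes by their NMBA difference favours, and none of these genes was called.

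Macrophage genes did not move as 1 group. Of 31 tested markers none was called, 8 had an unadjusted p under 0.05 with a lower and 3 with a higher level in CCR2-/- NMBA libraries (3.9% and 2.4% of all genes), and the median log2 difference was -0.08. The summed level was 250 to 431 FPKM in CCR2-/- NMBA and 371 to 576 FPKM in WT NMBA libraries, and Lyz2 was a large part of it. Aif1, which encodes the macrophage protein IBA1, measured 2.12, 2.04, 1.49, 2.08, 1.99 and 2.14 FPKM in CCR2-/- NMBA libraries, against 3.51, 2.78, 3.7, 3.95, 2.37 and 4.67 FPKM in WT NMBA libraries. The groups did not overlap (log2 difference -0.58, adjusted p = 0.292, limma), and the difference was 0.32 in controls. Clec4a1, a C-type lectin, had -0.54 (adjusted p = 0.409). Timd4, the receptor for phosphatidylserine of long-lived resident macrophages, measured 0.551, 1.61, 0.248, 1.42, 0.618 and 1.3 FPKM in CCR2-/- NMBA libraries, against 0.225, 0.251, 0.17, 0.59, 0.341 and 0.16 FPKM in WT NMBA libraries. Its higher level in CCR2-/- libraries came with overlap of the groups (log2 difference 0.56, adjusted p = 0.398, limma), and the difference was 0.68 in controls.

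Some general macrophage markers, chosen after their values were seen, had differences near 0, unlike Lyz2, Aif1, Clec4a1 and Timd4 of the same list. Cd68 averaged 17.9 and 18 FPKM in CCR2-/- NMBA and WT NMBA libraries (log2 difference -0.01 ± 0.10, standard error), Csf1r, the receptor for the growth factor of macrophages, had 0.06 ± 0.19, Adgre1, which encodes F4/80, had -0.09 ± 0.18 and the mannose receptor Mrc1 had 0.04 ± 0.24. Fcgr4, an activating receptor for IgG, is outside the list and was also chosen after its values were seen. It had 0.605 to 1.03 FPKM in CCR2-/- NMBA and 1.21 to 1.83 FPKM in WT NMBA libraries, which did not overlap (log2 difference -0.43, adjusted p = 0.292, limma).

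Dendritic cell genes of the type 2 and monocyte-derived kind included the called gene Tifab. Of 13 tested, 4 had an unadjusted p under 0.05 with a lower level and 0 with a higher level (3.9% and 2.4% of all genes), and the median log2 difference was -0.18, with -0.35 for O against M and -0.14 for I against G. Clec4a2, an inhibitory C-type lectin of dendritic cells, had 0.36 to 0.852 FPKM in CCR2-/- NMBA and 0.87 to 1.49 FPKM in WT NMBA libraries, which did not overlap (log2 difference -0.37, adjusted p = 0.292, limma). Ear2, a ribonuclease, averaged 1.09 ± 0.803 FPKM in CCR2-/- NMBA and 3 ± 1.78 FPKM in WT NMBA libraries (SD, n = 6 each, log2 difference -0.89, adjusted p = 0.525). Clec4b1, a lectin of the same cluster on chromosome 6 that is outside the lists, measured 0.271, 0, 0.0625, 0.0858, 0 and 0.199 FPKM in CCR2-/- NMBA libraries, against 0.589, 0.627, 0.673, 1.12, 0.378 and 0.347 FPKM in WT NMBA libraries. It was listed at 0 in CCR2-/- replicates 2 and 5 and every WT library was higher than every CCR2-/- library (log2 difference -0.55, adjusted p = 0.12, limma). Clec4b1 met the filter of 0.5 FPKM only through WT libraries. Langerhans and migratory dendritic cell genes had 0 of 11 tested genes past an unadjusted p of 0.05 and a median of -0.09.

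Monocyte markers other than Ccr2 gave no call and went both ways. Of 11 tested inflammatory monocyte genes, 1 had an unadjusted p under 0.05 (6.3% of all genes). It was Ms4a4c, with 0.251 to 0.755 FPKM in CCR2-/- NMBA and 0.466 to 1.1 FPKM in WT NMBA libraries (log2 difference -0.27, adjusted p = 0.73, limma). The list's median was -0.07, with 5 genes positive and 6 negative. Fn1, the matrix protein fibronectin that fibroblasts also make, had a log2 difference of 0.69, Ifitm6 had -0.39 and Hp, the haemoglobin-binding haptoglobin, had -0.52 (adjusted p = 0.73, 0.73 and 0.772, limma). Of 6 nonclassical monocyte genes 1 had an unadjusted p under 0.05, with a lower level in CCR2-/- NMBA libraries (3.9% of all genes), and their median was 0.01. The alternative activation genes, markers of macrophages exposed to type 2 cytokines, had 3 of 12 tested genes lower at an unadjusted p under 0.05 (3.9% of all genes). Their median was -0.18. Retnla, a secreted resistin-like protein, averaged 26.8 ± 16.8 FPKM in CCR2-/- NMBA and 45.4 ± 20.9 FPKM in WT NMBA libraries (SD, n = 6 each), with overlap (log2 difference -0.87, adjusted p = 0.73). The lectin genes Cd209a and Clec7a had -0.34 and -0.31 (adjusted p = 0.73 for both, limma).

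The ligands of the missing receptor were not called. Ccl2 measured 1.29, 1.95, 1.18, 2.38, 1.29 and 2.71 FPKM in CCR2-/- NMBA libraries, against 2.24, 2.52, 2.25, 2.14, 0.999 and 1.04 FPKM in WT NMBA libraries. The direction was not shared by the code sets, with a log2 difference of -0.44 for O against M and 0.39 for I against G (unadjusted p = 0.00798 for the difference between them in limma, adjusted p = 1). Over both sets it was -0.03 (standard error 0.16, adjusted p = 0.968). Ccl7, Ccl8 and Ccl12 had -0.13, -0.17 and -0.15 under NMBA, while Ccl8 and Ccl12 had 1.23 and 0.76 in controls, where neither passed (unadjusted p = 0.00981 and 0.00671 for the interaction, adjusted p = 0.893 for both, limma). Of 16 tested chemokine receptors, 1 was called lower, Ccr2, and 1 higher, Xcr1. Of 27 other chemokine ligands none was called, 4 were lower and 1 higher at an unadjusted p under 0.05 (3.9% and 2.4% of all genes), and the median was -0.13. They included Xcl1, the ligand of XCR1, with a log2 difference of -0.58, Ccl9 with -0.56 and the neutrophil attractant Cxcl5 with 0.61 (adjusted p = 0.73, 0.642 and 0.73, limma).

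T cell genes showed 2 small differences that did not pass. Cd4, the coreceptor of helper T cells that macrophages can also express, averaged 1.34 ± 0.5 FPKM in CCR2-/- NMBA and 0.76 ± 0.433 FPKM in WT NMBA libraries (log2 difference 0.42, adjusted p = 0.662, limma), and Cd8a, of cytotoxic T cells, 0.591 ± 0.209 and 0.358 ± 0.16 FPKM (SD, n = 6 each, log2 difference 0.23, adjusted p = 0.73). The 18 tested T cell genes had a median of 0.06. Of 13 tested genes of PD-1 signaling, 3 were lower and 1 was higher at an unadjusted p under 0.05 (3.9% and 2.4% of all genes). The lower ones are the class II genes H2-Eb1, H2-Aa and H2-Ab1, the higher one is Cd4, and the median was -0.04. Pdcd1, which encodes PD-1 and was chosen after its values were seen, measured 1.34, 0.284, 0.877, 0.871, 0.493 and 0.807 FPKM in CCR2-/- NMBA libraries, against 0.943, 0.905, 1.2, 0.851, 0.218 and 1.12 FPKM in WT NMBA libraries. The groups overlapped over most of their range (log2 difference -0.08, standard error 0.17, adjusted p = 0.913, limma). Regulatory T cell and checkpoint genes (16 tested), cytotoxic lymphocyte genes (5), gamma-delta and resident T cell genes (6), and B cell and plasma cell genes (11) had no gene past an unadjusted p of 0.05, with medians of -0.00021, -0.08, 0.05 and 0.21. The B cell median was 0.00 without CCR2-/- NMBA replicate 4, the library with the most Pgc.

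Other gene groups gave no call. The 36 tested cell cycle genes had a median of -0.10, and 31 of them were negative (45.9% of all genes), but none reached an unadjusted p of 0.05. In both code sets 16 were negative, against 26.7% of all genes. Pcna, the sliding clamp of DNA replication, averaged 27.6 ± 1.74 FPKM in CCR2-/- NMBA and 32.1 ± 4.85 FPKM in WT NMBA libraries (SD, n = 6 each, adjusted p = 0.73, limma), and the mitotic kinase Cdk1 had -0.30. Squamous differentiation genes (24 tested) had a median of 0.06. Crnn, the cornified envelope protein cornulin, measured 3.09, 2.93, 3.75, 2.52, 3.36 and 5.8 FPKM in CCR2-/- NMBA libraries, against 1.57, 2.96, 1.56, 1.81, 0.49 and 0.996 FPKM in WT NMBA libraries. It was above 2.5 FPKM in all CCR2-/- libraries and in 1 WT library (log2 difference 0.87, adjusted p = 0.288, limma). Interferon-stimulated genes (34 tested) had a median of 0.08, with 22 positive. At an unadjusted p under 0.05, 1 was higher and 2 were lower (2.4% and 3.9% of all genes). Oasl2, an antiviral gene, had a log2 difference of 0.51, Ddx58, which encodes the RNA sensor RIG-I, had 0.29 and Irf1, an interferon-induced transcription factor, had -0.44 (adjusted p = 0.73, 0.73 and 0.693, limma). MHC class I genes (12) had a median of -0.07, neutrophil genes (10) -0.01, mast cell, basophil and eosinophil genes (14) -0.05 and inflammatory cytokines (14) 0.10.

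Stromal and neighbouring tissues varied between libraries. Fibroblast and collagen genes (26 tested) had a median of 0.22, with 0.02 for O against M and 0.46 for I against G, and Col12a1, a collagen, had 0.55 (adjusted p = 0.73, limma). Endothelial genes (17) had a median of 0.09, adipocyte genes (14) -0.05, the 2 tested genes of blood and platelets -0.15 and glandular stomach genes (18) -0.20, which was 0.03 without CCR2-/- NMBA replicate 1. Muscle genes (17) had a median of -0.04, with -0.36 for O against M and 0.38 for I against G, and Acta1, the actin of skeletal muscle, averaged 1.16 ± 0.406 FPKM in CCR2-/- NMBA and 4.74 ± 3.52 FPKM in WT NMBA libraries (SD, n = 6 each, adjusted p = 0.73, limma). The part of tissue makeup in the immune values above was not tested.

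**Figure D4:**
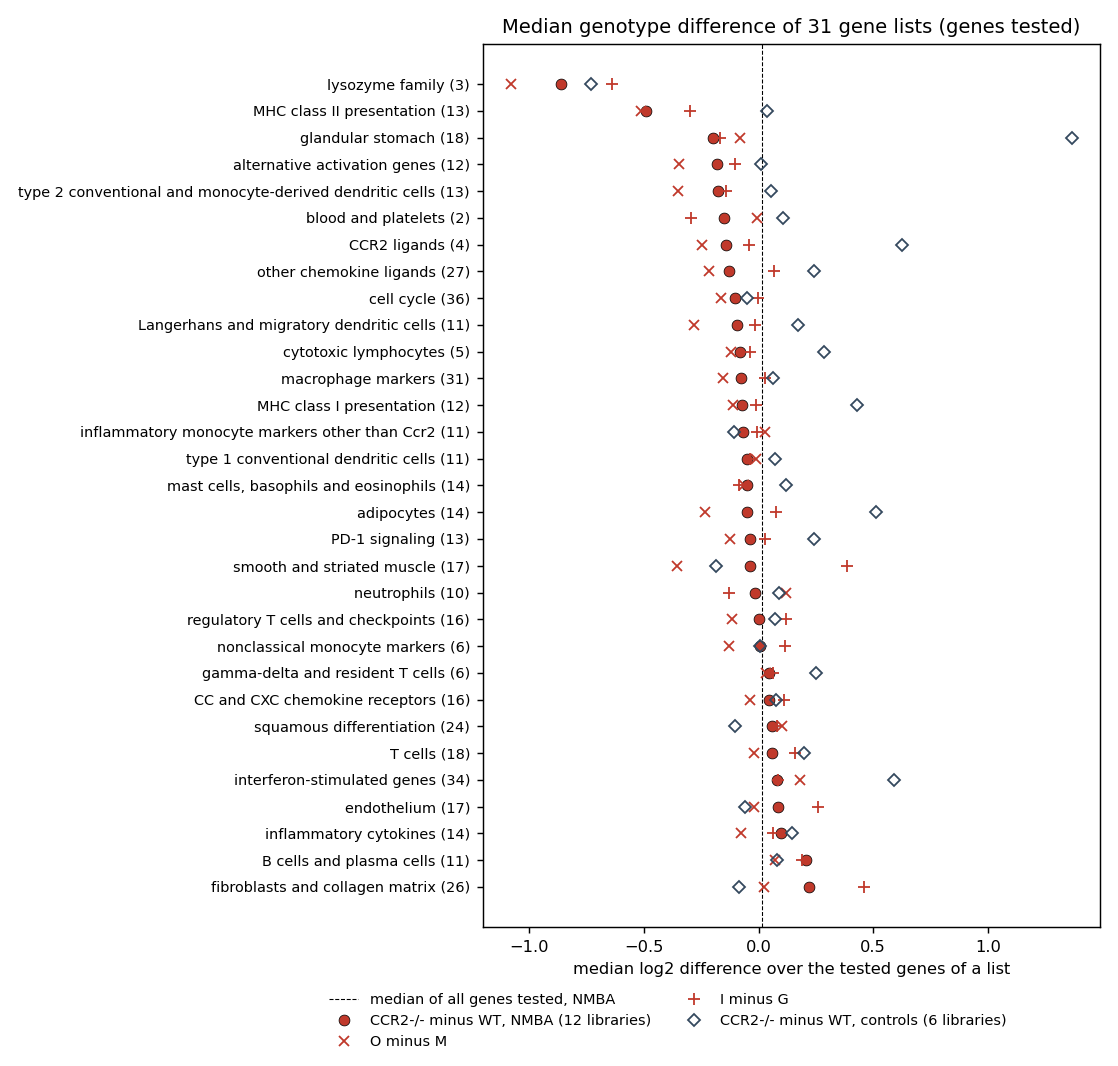
Median log2 difference CCR2-/- minus WT (x axis) over the tested genes of each of 31 lists (y axis, number tested in parentheses), for the 12 NMBA libraries (circles), O minus M (x), I minus G (plus signs) and the 6 controls (diamonds), with a dashed line at the median of all genes under NMBA. The lysozyme and MHC class II lists lie lowest under NMBA, at -0.86 and -0.49, and most lists lie within 0.2 of 0.

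The 2 code sets share no library, so each gave its own value of the genotype difference. O against M called 2 genes of 14765 (0.0135%), Ccr2 and Slc6a20a, and I against G called 3 (0.0203%), Ccr2, Slc6a20a and Krt76. Over all genes, 59.5% had the same sign in both sets. Of 357 genes other than Ccr2 with an unadjusted p under 0.05 and a lower level in O than in M, 267 (74.8%) were also lower in I than in G, beside 43.5% of all genes with that sign, and of 184 with a higher level, 128 (69.6%) were also higher, beside 56.5% of all genes. Read the other way, 316 of 453 genes lower in I than in G (69.8%, beside 50.4%) and 305 of 481 higher genes (63.4%, beside 49.6%) had that sign in O against M. These counts describe genes that vary together and carry no test.

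Krt76, a keratin of the differentiated layers of squamous epithelium, was called in I against G but not in O against M. It measured 6.53, 7.48 and 7.94 FPKM in the O libraries against 7.82, 6.83 and 5.89 FPKM in the M libraries, and 12.4, 11.4 and 9.11 FPKM in the I libraries against 5.14, 5.63 and 4.57 FPKM in the G libraries. The log2 difference was 0.96 for I against G (adjusted p = 0.0297, limma) and 0.09 for O against M, and the difference between the sets had an unadjusted p of 0.000571 and an adjusted p of 1. The Krt76 call depended on single libraries. It was lost when WT CT replicate 3 or CCR2-/- CT replicate 3 was dropped, as no gene was then called higher in I than in G. Dropping some NMBA libraries also ended it, among them WT replicate 4 and CCR2-/- replicate 5. No gene was called for a difference between the code sets, and 421 had an unadjusted p under 0.05 (2.85%, limma).

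**Figure D5:**
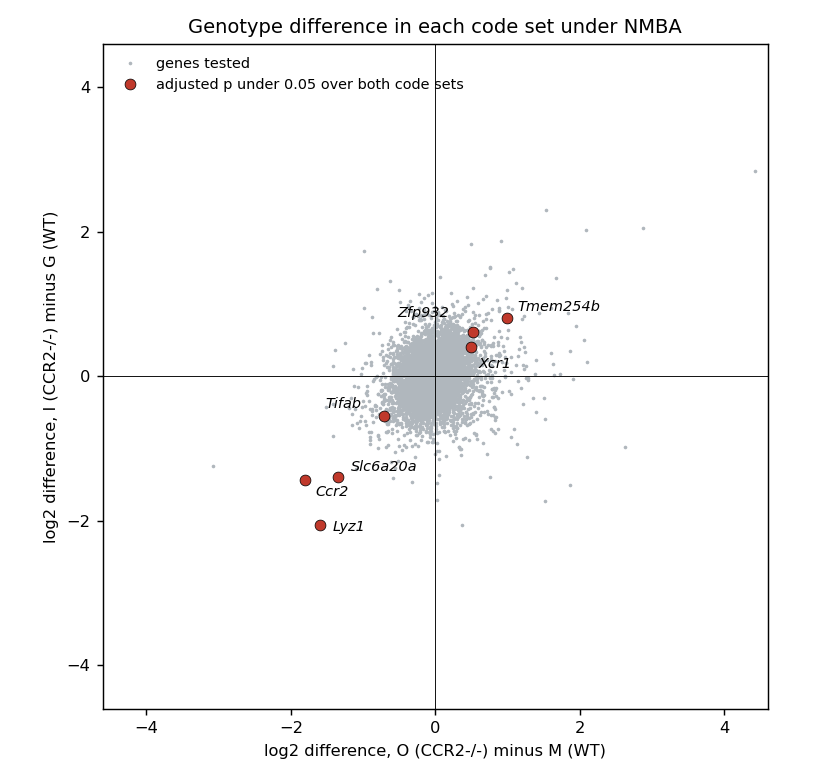
Log2 difference of O (CCR2-/-) minus M (WT) on the x axis and of I (CCR2-/-) minus G (WT) on the y axis for each of 14765 tested genes (grey points) under NMBA, with the 7 called genes as larger circles. All 7 lie in the quadrants where both differences have the same sign, which follows from their NMBA groups not overlapping.

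The vehicle controls gave the same contrast in 3 CCR2-/- CT against 3 WT CT libraries, which share no library with the NMBA contrast. Ccr2 was the only gene called there (0.00677% of 14765, limma), and 754 genes (5.11%) had an unadjusted p under 0.05. In this contrast the glandular stomach genes had a median log2 difference of 1.37 and the interferon-stimulated genes of 0.59, and their part in the control values was not tested. Of the 48 genes whose NMBA groups did not overlap, the 7 called genes among them, 32 had the same sign in controls. That is a higher share than the 47.7% of all tested genes. No gene was called for a difference between the NMBA and the control contrast, and 673 had an unadjusted p under 0.05 (4.56%, limma). The genotype differences of all 7 called genes thus had the same sign also in mice that received no carcinogen. They showed no overlap there, for which the share over all genes was not counted. Of genes that were not called, H2-Aa and Aif1 had a positive difference in controls (0.20 and 0.32). H2-Eb1, H2-Ab1, H2-DMb1 and Lyz2 had a negative one (-0.14, -0.15, -0.14 and -0.27), and none of these differences passed.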

How the data were processed

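Gene-level FPKM values of 18 libraries were used as the authors deposited them, 1 column per library, with groups taken from the labels. Per the labels, libraries were made from total RNA with the Illumina TruSeq kit, and GRCm38 (mm10) and DESeq2 are listed in the submitters' processing notes. The aligner and the tool that gave the FPKM are not given in the sources used here, nor is strandedness, so overlapping and antisense genes cannot be told apart. Of 57234 entries, 28934 have a reference gene, and the other 28300 entered only an alternative. Of the single genes that match GENCODE M21 by identifier, 99.9% overlap its gene, so the coordinates are of GRCm38.

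Entries at 0.5 FPKM or more in at least 3 libraries were kept (14765). On log2(FPKM + 1), limma 3.58.1 (R 4.3.3, with trend) fitted the 4 groups, and a second fit used the 6 code letters. Tests were two-sided with Benjamini-Hochberg adjustment at 0.05. On data simulated from these libraries, for CCR2-/- against WT under NMBA with 14765 genes, 35.5% of 200 changed genes were recovered at a log2 change of 0.5, 85% at 1 and 96% at 2. The changed genes had a mean log2(FPKM + 1) above 1, and independent normal noise was drawn for each gene. These shares thus do not cover genes of low level such as Xcr1, and they hold for 200 changed genes only. The number of reads behind each library is unknown, which allows no counting interval. The spacing of low values places depth at 0.985 to 1.36 times that of WT CT replicate 1. Nothing says that libraries of a group came from separate mice beyond their labels as samples, so p values measure the spread between these samples.

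Named genes are Ccr2, all called genes, the 10 smallest p in each direction, up to 4 of each list by p, genes called within a code set and genes near Ccr2. Of these, 1 is not reported here. The comparison, the 31 gene lists (577 symbols, 507 with an entry) and the rule were chosen with earlier results of these data known. Promoters were matched by symbol in a RefSeq table of 27025 genes (Biopython 1.88, Python 3.11.15), and figures drawn with matplotlib 3.10.9. Alternatives changed the pseudocount, filter, scaling, libraries, block, weights, variance prior and threshold, each 1 at a time.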

Additional observations from a re-analysis of the deposited data

Results flagged for a closer look

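In 8 of 108 groups searched (54 named genes in both NMBA groups), 1 library stood far from the other 5, where chance gives about 1 in 20. CCR2-/- NMBA replicate 5 was lowest for 3 gene copies, with 11.3 FPKM of Tpm3-rs7 (45 to 86 in the others), 5.67 FPKM of Rps3a2 (91.2 to 247) and 3.02 FPKM of Hsp25-ps1 (7.78 to 10.1). CCR2-/- CT replicate 2 was likewise low for Tpm3-rs7 (13.3 FPKM) and Rps3a2 (7.63 FPKM). Mettl15 had 1.38 FPKM in CCR2-/- NMBA replicate 4 (1.65 to 1.78 in the others) and Aif1 had 1.49 FPKM in CCR2-/- NMBA replicate 3 (1.99 to 2.14). Ccl7 was highest in CCR2-/- NMBA replicate 6, at 3.5 FPKM (1.62 to 2.07). In WT NMBA libraries, Adss had 6.88 FPKM in replicate 6 (8.93 to 10.3) and Pdcd1 had 0.218 FPKM in replicate 5 (0.851 to 1.2).

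With all entries of the table, 9 transcribed regions without a reference gene passed the test, 7 higher and 2 lower in CCR2-/- NMBA libraries. MSTRG.39184 had 0.273 to 0.868 FPKM in CCR2-/- NMBA libraries and was listed at 0 in all WT NMBA libraries (adjusted p = 0.00263, limma), and it had 0.248 to 0.368 FPKM in CCR2-/- CT and 0 in WT CT libraries. MSTRG.53759 had 1.2 to 1.56 FPKM in CCR2-/- NMBA and 0.525 to 0.824 FPKM in WT NMBA libraries (adjusted p = 0.0162). MSTRG.40508 was listed at 0 in all CCR2-/- libraries, with 0 to 2.06 FPKM in WT NMBA and 1.12 to 2.03 FPKM in WT CT libraries (adjusted p = 0.0318). MSTRG.39184 thus met the filter of 0.5 FPKM only through CCR2-/- libraries and MSTRG.40508 only through WT libraries. MSTRG.20291 had 0.689 to 1.71 FPKM in CCR2-/- NMBA and 2 to 3.44 FPKM in WT NMBA libraries, and 2.55 to 3.05 FPKM in CCR2-/- CT and 1.98 to 3.03 FPKM in WT CT libraries (adjusted p = 0.0365).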

How the results depend on the processing

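CCR2-/- against WT under NMBA called 7 genes, and 3 with the 12 NMBA libraries fitted alone, or 16 with all entries of the table, 7 of them the same and 9 without a reference gene. Leaving out single libraries gave 4 to 13 (4 for each of CCR2-/- NMBA replicates 1 and 3 and WT NMBA replicates 3 and 4, but 13 when CCR2-/- NMBA replicate 5 was dropped). O against M called 2 genes, 1 with a pseudocount of 0.1, 8 with no filter on low values and 8 with a filter of 0.1 FPKM, and 2 to 4 without single libraries (4 without WT CT replicate 3 or CCR2-/- NMBA replicate 6). I against G called 3, and 2 to 9 without single libraries (9 without WT NMBA replicate 5). The difference between code sets called 0 genes, 3 with no filter, and 0 to 1 without single libraries (1 without CCR2-/- NMBA replicate 6). Controls called 1 gene, 4 with no filter, and 1 to 6 without single libraries (6 without CCR2-/- CT replicate 1, 2 without CCR2-/- NMBA replicate 6). The interaction called 0 genes and 0 to 1 without single libraries (1 without CCR2-/- CT replicate 1). The causes were not tested.

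Ccr2, Slc6a20a and Tmem254b stayed called under all 34 alternatives run. Xcr1 lost its call with the 12 NMBA libraries alone (adjusted p = 0.0533, limma) and did not enter the filter of 1 FPKM in 6 libraries. Lyz1 was lost under 10 alternatives (highest adjusted p = 0.0898), Zfp932 under 17 (0.154) and Tifab under 18 (0.18), each with its direction kept. Over 54 named genes and 34 alternatives, 9 values reversed, all without single libraries and in genes that did not pass: Ccl2 ran over -0.12 to 0.04, Ccl7 over -0.27 to 0.01 and Pdcd1 over -0.19 to 0.01. The medians of 14 of 31 lists kept their sign throughout, MHC class II (-0.59 to -0.39), lysozymes, macrophage markers and type 2 dendritic cells among them.

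With the replicate block the NMBA contrast called 7 genes, the same ones, and the fit within code sets called 6, without Tifab. Same-numbered libraries of the 2 genotypes had correlated deviations of -0.29 to 0.429 over 6 pairs, and 2 of 6 CCR2-/- libraries correlated best with their own number. So few pairs cannot settle whether the numbers pair the libraries.

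Xcr1 was below 1 FPKM in all NMBA libraries, and the number of reads behind it is unknown.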

Other observations

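Genes outside the naming rule, chosen after their values were seen, also had NMBA groups that did not overlap. Rab22a, a small GTPase of endosomes, had 10.1 to 13.4 FPKM in CCR2-/- NMBA and 2.4 to 9.23 FPKM in WT NMBA libraries, where replicates 4 and 6 held 9.23 and 8.03 FPKM and the other 4 held 2.4 to 3.19 FPKM. Ctdspl, a phosphatase gene, had 5.72 to 8.29 FPKM in CCR2-/- NMBA libraries and, in the WT NMBA group, 5.49 and 5.46 FPKM in replicates 4 and 6 against 0.644 to 2.17 FPKM in the other 4. The log2 differences, 1.32 and 1.28, did not pass (adjusted p = 0.289 and 0.292, limma) and were 0.02 and 0.39 in controls. Gm27234, a predicted gene, had 0.894 to 12.6 FPKM in CCR2-/- NMBA and 0.263 to 0.629 FPKM in WT NMBA libraries, and 0.679 to 14.6 FPKM in CCR2-/- CT against 0.326 to 0.703 FPKM in WT CT libraries (log2 difference 2.47 under NMBA, adjusted p = 0.111, limma).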
